A study of Mus musculus with 12 samples.

Results

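Genes whose products set how long an mRNA lasts were followed in ChIP-seq data from microglia, the resident macrophages of the brain. The 10 genes were *Zfp36*, *Zfp36l1*, *Zfp36l2*, *Elavl1*, *Hnrnpd*, *Khsrp*, *Tia1*, *Zc3h12a*, *Cnot1* and *Pum2*, chosen by name for the role of their products and not by their values. Members of the data were all peaks annotated to one of these genes, that is, peaks whose nearest transcription start site (TSS) belongs to it. These were 43 of 26706 peaks of Rpb2 and 59 of 55862 peaks of acetylated histone H3 at lysine 27 (H3K27Ac), 102 of 82568 in all. No Rpb2 peak was annotated to *Elavl1*.

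Rpb2 is a core subunit of RNA polymerase II, and H3K27Ac marks active promoters and enhancers. Microglia were sorted as CD11b+CD45lo cells from 2-mo-old C57BL/6J mice. WT mice carried both intact alleles of *Cx3cr1*, which encodes the fractalkine receptor. KO mice were homozygous for an allele that eGFP disrupts. The genotypes were littermates from crosses of heterozygotes, the deletion is constitutive, and it affects all cells that use the gene. Each library was made from microglia pooled from 3 mice of one sex, and every genotype and mark had 1 female and 1 male pool by label, which gives n = 2 pools per genotype. A pool gives 1 value for its mice, and with 2 pools against 2 the smallest p that exact permutations allow for a single peak is 0.333, so p values come from models fitted across all peaks.

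Many short-lived mRNAs carry AU-rich elements (AREs) in their 3′ untranslated region (UTR). The tristetraprolin family, ZFP36, ZFP36L1 and ZFP36L2, binds AREs and brings in the CCR4-NOT complex, whose scaffold is CNOT1 and which removes the poly(A) tail. KSRP (*Khsrp*) also hastens ARE decay, HuR (*Elavl1*) protects ARE transcripts, AUF1 (*Hnrnpd*) can do either, and TIA-1 (*Tia1*) mainly holds back their translation. Regnase-1 (*Zc3h12a*) is an endonuclease that cuts stem-loops in inflammatory mRNAs, and PUM2 (*Pum2*) represses mRNAs with Pumilio elements. In macrophages, tristetraprolin and Regnase-1 limit cytokines. ChIP-seq reads report polymerase and acetylation on the genes, and the stability of any mRNA was not measured here.

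Libraries held between 10395804 and 44332626 reads, with the KO female Rpb2 library the deepest and the other Rpb2 libraries between 11662185 and 16528108. The Rpb2 library labelled WT female held 136 reads in 3 peaks of Y-linked genes, against 214 and 266 in the male libraries and 0 in the KO female library, which goes against its label. It is called the library labelled WT female below. For H3K27Ac, 15.9% of the reads of the WT female library lay in peaks, against 61.1 to 65.3% in the other libraries. Rpb2 lay at the TSS of 7 of 8 microglia markers, *Aif1* being the exception, with summed levels of 2380 to 2610 CPM (reads scaled to 1e+06 reads in promoter peaks), and at none of the 4 neuronal, 4 astrocyte, 4 border macrophage, 3 lymphocyte and 2 neutrophil markers. The 78 H3K27Ac peaks of all 8 microglia markers summed to 4190 to 6630 CPM, here scaled to reads in all H3K27Ac peaks. The sums were 320 to 358 CPM for 4 oligodendrocyte markers (16 peaks) and 198 to 260 CPM for 3 endothelial markers (22 peaks). For 4 border macrophage markers (9 peaks) they were 52.7 to 62.3 CPM, and for 3 of 4 neuronal markers (8 peaks) 17.7 to 59.3 CPM. At 2 of 4 astrocyte, 1 of 3 lymphocyte and 1 of 2 neutrophil markers they reached 14.4, 7.35 and 16.4 CPM. The neuronal, astrocyte, lymphocyte and neutrophil sums were highest in the WT female library. For Rpb2, 1 of 4 oligodendrocyte markers, *Mbp*, had 16.4 to 92.5 CPM, and 1 of 3 endothelial markers, *Pecam1*, had 32.8 to 65.1 CPM. In sorted cells measured in bulk, a smaller share of cells with a signal and less signal per cell cannot be told apart. At the TSS of *Cx3cr1* itself, upstream of the coding sequence, WT libraries had 369 and 462 Rpb2 reads against 1442 and 623 for KO (female and male, the order used throughout). This was 480.6 and 505 against 476.4 and 443.3 CPM, a log2 fold change KO over WT of -0.10 ± 0.19 (SE, adjusted p = 0.902). This peak therefore does not check the genotype labels.

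The start sites of the members differ in sequence, and the 2 shown here are the contrasts among those with Rpb2 directly over them. Promoter entries (250 bases before to 50 after a start) of RefSeq on GRCm38.p6 matched 8 of the 10 members, all but *Zfp36l2* and *Cnot1*, with 10 entries in all. The 200 bases upstream of *Zfp36l1* (chr12:80113014-80113213, minus strand) hold a TATAAA at -29 to -24, followed by CCAAT on the opposite strand (read as ATTGG), which shares its first base with the TATAAA. The 200 bases upstream of *Zc3h12a* (chr4:125127882-125128081, minus strand) hold 5 GC boxes (GGGCGG, or CCGCCC on the other strand) and no TATAAA. These windows, 5′ to 3′ with the named motifs in capitals and the last base next to the start, overlap no annotated exon and read as follows.
Zfp36l1: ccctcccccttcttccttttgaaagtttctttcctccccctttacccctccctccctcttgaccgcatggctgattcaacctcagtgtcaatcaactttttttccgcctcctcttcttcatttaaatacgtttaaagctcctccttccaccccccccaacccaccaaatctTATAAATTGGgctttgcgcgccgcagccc
Zc3h12a: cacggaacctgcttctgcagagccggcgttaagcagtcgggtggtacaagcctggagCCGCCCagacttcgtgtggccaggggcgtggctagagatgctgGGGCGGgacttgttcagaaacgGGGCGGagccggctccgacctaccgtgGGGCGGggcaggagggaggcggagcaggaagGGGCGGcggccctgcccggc
*Zfp36l1* was the only member with TATAAA, which 13.6% of all 32851 promoter entries hold on either strand. GC boxes were in entries of *Hnrnpd*, *Khsrp*, *Pum2*, *Zc3h12a* and *Zfp36* (35.7% of all entries hold one), and CCAAT was in those of *Elavl1*, *Khsrp* and *Zfp36l1* (37.4% of all). The AP-1 letters TGAGTCA (5.2% of all), the cAMP response element TGACGTCA (1.79%) and the PU.1 letters GAGGAAGT (3.2%) were in none of the member entries, CACGTG (7.15%) was in that of *Hnrnpd*, and GCATGCGC (2.71%) was in that of *Tia1*. In the 200 bases upstream of the start alone, member entries had a median GC content of 70% and a median of 23 CpGs, against 53% and 5 over all entries.

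Polymerase was most abundant on *Zfp36* and *Zfp36l1*. Levels were compared as CPM per kb of peak at the leading promoter peak of each gene, the peak within 1000 bp of its TSS with the highest mean, with CPM as above. *Zfp36* had 3457 CPM per kb over the 4 libraries (2841 to 3944) and *Zfp36l1* had 3221 (2887 to 3865), at or above 99.8% and 99.7% of the leading peaks of 8350 genes. *Zfp36l2* followed with 956 CPM per kb (569 to 1359, at or above 92% of genes). Its WT mean was 1190 and its KO mean 723 CPM per kb, against 652 and 794 CPM per kb for *Hnrnpd*, so that within KO *Hnrnpd* had the higher mean. *Hnrnpd* (723), *Zc3h12a* (595), *Pum2* (476), *Tia1* (351) and *Khsrp* (345) came next, and *Cnot1* was lowest at 156 CPM per kb (112 to 201), at or above 19.6% of genes. The libraries of neighbours in this order overlapped, except between *Zfp36l1* and *Zfp36l2* and between *Khsrp* and *Cnot1*. The leading peak of *Cnot1* is centred at -524 bp (negative distances are upstream of the TSS), in the neighbouring gene *4930513N10Rik*, and its other peak, over the TSS, had 215 CPM per kb. The leading peak of *Khsrp* is centred at -829 bp. Without strand in these reads, polymerase of either gene of a divergent pair cannot be told apart.

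**Figure D1:**
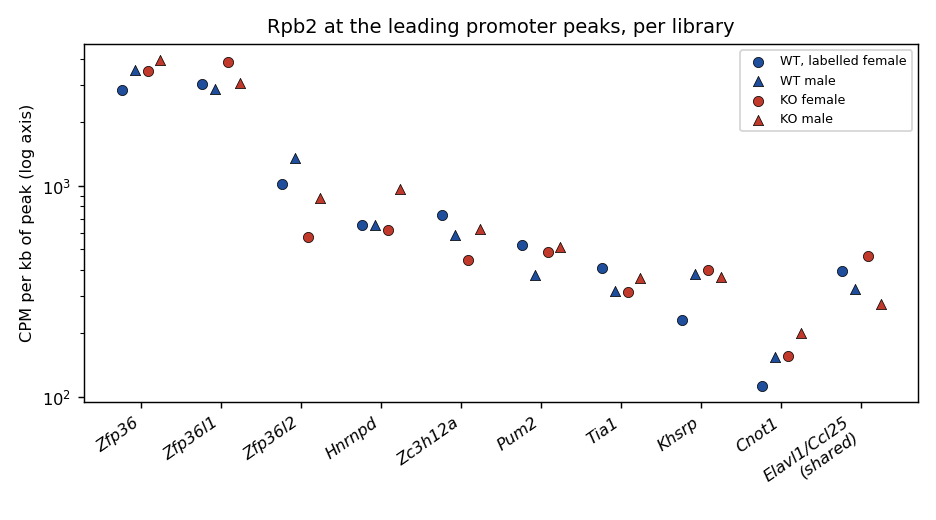
Rpb2 level (CPM per kb of peak, log axis) at the leading promoter peak of 9 members and at the peak shared by *Elavl1* and *Ccl25*, 1 point per library (blue WT, red KO, circles for pools labelled female, triangles for male). *Zfp36* and *Zfp36l1* lie at 2841 or above in all libraries, and *Zfp36l2* is the gene at which both KO points lie well below both WT points.

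The Rpb2 table has no peak named for *Elavl1* (HuR), but one lies at its start. A peak on chromosome 8 from 4325161 to 4325421, with its centre 191 bp upstream of the *Elavl1* TSS at 4325100, is annotated to *Ccl25*, a chemokine gene whose TSS is 81 bp away, and it lies within the longest annotated extent of *Elavl1* (to 4325413). Its reads were 79 and 77 (WT) and 365 and 100 (KO), or 102.9 and 84.2 CPM against 120.6 and 71.2. The KO pools lay on both sides of the WT pools, with a log2 fold change of 0.05 ± 0.39 (adjusted p = 0.984). At 364 CPM per kb, its level stood between those of *Pum2* and *Tia1*. This peak is no member by the rule, and which of the 2 genes its polymerase belongs to was not tested.

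The first question was whether Rpb2 at member promoters differed between KO and WT microglia. None of the 14 promoter peaks of 9 genes passed an adjusted p of 0.05 in edgeR's quasi-likelihood test, beside 0% of the 10125 promoter peaks tested. DESeq2, voom and the likelihood ratio test called none of the 14 either. One of the 14 had an unadjusted p under 0.05, beside 10.6% of all. Both KO pools lay above both WT pools at 4 of the 14 (21.7% of all peaks) and below them at 1 (20.4% of all). Of the 4, all but the *Zfp36l1* TSS peak were called as peaks in KO microglia alone, by these same libraries. Such peaks made up 5 of the 14, and the remaining 9 were called in both genotypes. The median log2 fold change of the 9 leading peaks was 0.22, and that of the leading peaks of all 8350 genes was 0.01. Without the library labelled WT female the median of the 9 was 0.09. The single values then were 0.08 for *Zfp36*, 0.27 for *Zfp36l1*, 0.28 for *Hnrnpd*, 0.41 for *Pum2*, 0.20 for *Cnot1* and -0.14 for *Zc3h12a*, and the sign turned at *Khsrp* (-0.002) and *Tia1* (0.09).

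Of the tristetraprolin genes, *Zfp36l2* had the lowest adjusted p. The *Zfp36l2* peak with its centre 75 bp into the gene (chromosome 17, 84187708 to 84188037) had 258 and 409 reads (WT) and 567 and 405 reads (KO). Scaled, this was 336.1 and 447 CPM in WT against 187.3 and 288.2 CPM in KO, and no KO pool reached the lower WT pool. The log2 fold change was -0.73 ± 0.25 (adjusted p = 0.29), the lowest adjusted p of the 14 peaks and the one unadjusted p under 0.05. Without the library labelled WT female it was -0.92 ± 0.28 with an adjusted p of 0.0397, which passes the threshold. Without the KO female library it was -0.43, and its adjusted p ranged from 0.0397 to 0.81 over all alternatives to this fit. In the fit of all Rpb2 peaks it was -0.86 ± 0.26 (adjusted p = 0.241). There it passed the threshold with DESeq2 (adjusted p = 0.0364), with DESeq2 and a prior on fold changes (0.0367), and with limma voom and sample quality weights (0.023). Of all 26706 peaks, DESeq2 called 436 higher and 586 lower in KO, its prior 467 and 589, and voom 1 and 93. Without the library labelled WT female the value in this fit was -1.07. Both fits without that library hold a single WT pool, and thus no spread between WT pools. The call thus depended on the test and on that library, while both pools labelled female and both labelled male showed the lower KO value (log2 ratios of -0.84 and -0.63).

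*Zfp36l2* had 2 other promoter peaks. All 3 also lie in *AC132455.1*, an overlapping gene on the other strand, and the reads carry no strand. The peak at -717 bp, outside *Zfp36l2* itself, had 99 and 139.9 CPM in WT against 142 and 186.4 CPM in KO, so the KO pools lay above (log2 fold change 0.45 ± 0.33, adjusted p = 0.679). It was called as a peak in KO microglia alone. The intronic peak at 760 bp had 157.6 and 101.6 CPM in WT and 103.4 and 101.8 CPM in KO, which overlapped (-0.33 ± 0.35, adjusted p = 0.79). In the fit of all peaks the intronic peak had 94.1 and 61.2 CPM in WT against 56.9 and 55.8 CPM in KO, with the KO pools below (-0.46 ± 0.34, adjusted p = 0.605), and the peak at -717 bp overlapped (0.32 ± 0.32, adjusted p = 0.702). No test of one peak against another was run.

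*Zfp36*, which encodes tristetraprolin itself, had 458 and 679 reads (WT) and 2231 and 1164 reads (KO) at its TSS (chromosome 7, 28379126 to 28379336). This was 596.6 and 742.1 CPM against 737 and 828.3 CPM, ranges that overlap, with a log2 fold change of 0.22 ± 0.17 (adjusted p = 0.687). *Zfp36l1* had 635.7 and 603.3 CPM in WT against 807.7 and 646.1 CPM in KO, so the KO pools lay above by a small margin (0.23 ± 0.17, adjusted p = 0.685). Its second promoter peak, at -711 bp, had 19.5 and 67.8 CPM in WT and 51.9 and 62.6 CPM in KO, and overlapped. In the fit of all peaks, which shifts the median of the leading promoter peaks to -0.12, the values of *Zfp36* and *Zfp36l1* at their TSS were 0.10 and 0.11, and the pools of both genes overlapped.

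Among the other ARE-binding proteins, *Hnrnpd* had 142 and 141 CPM in WT and 134.1 and 210.6 CPM in KO (0.28 ± 0.31, adjusted p = 0.806). *Khsrp* had 65.1 and 108.2 CPM in WT and 112 and 103.9 CPM in KO at its leading peak (0.31 ± 0.38, adjusted p = 0.822). Both overlapped between genotypes, the first through the KO female pool and the second through the WT male pool. At the smaller *Khsrp* peak over the TSS itself there were 10 and 33 reads (WT) and 133 and 66 reads (KO), or 13 and 36.1 against 43.9 and 47 CPM, with the KO pools above (0.87 ± 0.63, adjusted p = 0.679). This peak was called in KO microglia alone. *Tia1*, the translational silencer, had 97.7 and 76.5 CPM in WT and 75.7 and 87.5 CPM in KO at its only Rpb2 peak, in the first exon, and these overlapped (-0.10 ± 0.39, adjusted p = 0.965).

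Regnase-1, the endonuclease, had 222.7 and 178.2 CPM in WT and 135.1 and 190 CPM in KO at the *Zc3h12a* TSS (-0.31 ± 0.29, adjusted p = 0.764), with the KO male pool between the WT pools. The deadenylase scaffold *Cnot1* had 36.5 and 50.3 CPM in WT and 50.5 and 65.5 CPM in KO at its leading peak (0.41 ± 0.50, adjusted p = 0.823), where the KO pools lay above the WT pools by 0.2 CPM at the closest. At the peak that spans its TSS, 44 bp into the gene, the values were 36.5 and 61.2 against 40 and 57.6 CPM (-0.01 ± 0.52, adjusted p = 0.997) and overlapped. Both *Cnot1* peaks were called in KO microglia alone. *Pum2* had 106.8 and 76.5 CPM in WT and 99.1 and 103.9 CPM in KO (0.15 ± 0.37, adjusted p = 0.934). SEs of 0.29 to 0.52 at these genes set how small a difference could have been seen.

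The next question was whether polymerase differed along the genes, beyond their promoters. All 43 Rpb2 peaks were tested in the fit of all 26706 peaks. None passed the adjusted threshold (0.00749% of all peaks did), 1 had an unadjusted p under 0.05 (12.2% of all), and this was the *Zfp36l2* TSS peak. KO pools lay above WT pools at 13 of 43 peaks (30.2%, beside 25.7% of all peaks) and below at 5 (11.6%, beside 21.7% of all). By sign, 29 log2 fold changes were above 0 and 14 below, with a median of 0.19 beside 0.04 over all peaks. The table joins peaks called in WT and in KO microglia, and 21 of the 43 came from the KO list alone (14148, or 53%, of all), 5 from the WT list alone and 17 from both. The 21 had a median of 0.50 (0.51 over all KO-list peaks) and held 11 of the 13 peaks with KO above, while the 17 of both lists had a median of 0.10 (-0.17 over all) with 2 above and 4 below. The list a peak came from was set by these same libraries, of which the KO female one is by far the deepest.

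**Figure D2:**
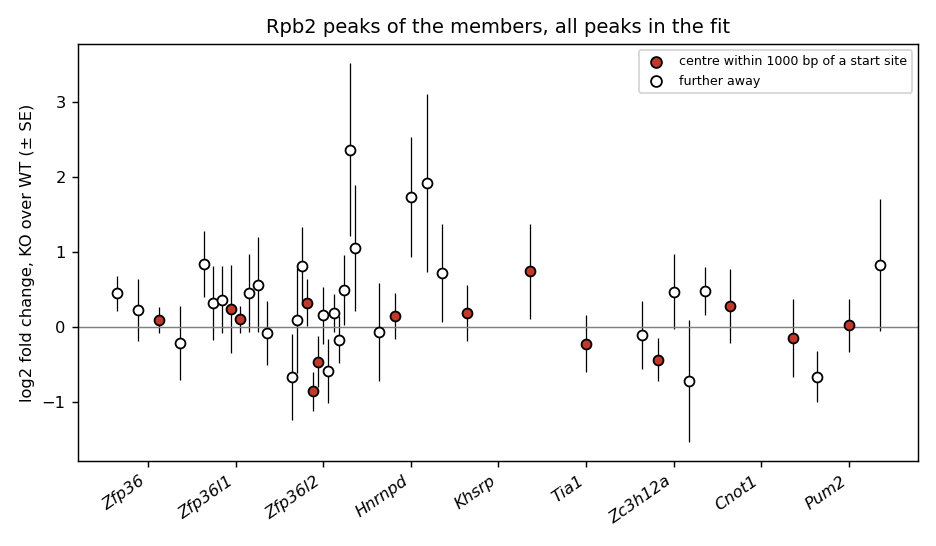
Log2 fold change of Rpb2, KO over WT, with its SE, for the 43 peaks in the fit of all peaks, grouped by gene and ordered by distance from upstream to downstream (red, centre within 1000 bp of a TSS; white, further away). Most SEs cross 0, and the largest values, at *Zfp36l2* and *Hnrnpd*, belong to distant peaks with few reads.

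*Zfp36l2* had the most peaks, 13, a number that 2.46% of the 10206 genes with an Rpb2 peak reach. Over the body of the gene, Rpb2 at the peaks in the 3′ UTR was 38.9 and 56.6 CPM in WT against 36.6 and 26.9 CPM in KO at 2810 bp (-0.59 ± 0.43, adjusted p = 0.606), and 38.9 and 61.2 against 52.2 and 60.1 CPM at 2208 bp (0.16 ± 0.38, adjusted p = 0.894). The peak at 2810 bp came from the WT list alone. Past the end of the gene, at 4410 bp, a peak of the KO list alone had KO pools above the WT pools, 120.2 and 134.6 against 112.7 and 110.6 CPM (0.19 ± 0.25, adjusted p = 0.789). The 3 peaks between 41821 and 46666 bp downstream, in the neighbouring gene *AC132455.2*, came from the KO list alone. Their KO pools lay above the WT pools, with log2 fold changes of 0.50, 2.37 and 1.06. The middle value rests on 8 and 0 WT reads against 74 and 46 KO reads (adjusted p = 0.436), and without the library labelled WT female, whose loss leaves only a 0, that peak passed the threshold (adjusted p = 0.00267). The 3 peaks between -84714 and -105464 bp lie in introns of *Thada*, so that their link to *Zfp36l2* is by distance alone.

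*Hnrnpd* had 4 peaks away from its TSS. The peak at 19626 bp, in a 3′ UTR, had 3 and 15 reads (WT) and 134 and 44 reads (KO), or 2.33 and 9.88 CPM against 24.4 and 17.2 CPM, with the KO pools above (1.74 ± 0.80, adjusted p = 0.411). The intergenic peak at 24778 bp held 0 and 7 reads against 48 and 25 (1.93 ± 1.18, adjusted p = 0.534). Both peaks came from the KO list alone, which was set by these same libraries. These 2 passed the threshold only when the WT male library was left out (adjusted p = 0.0257 and 0.0228), which leaves the library labelled WT female with 3 and 0 reads there. *Zc3h12a* had a peak 11282 bp downstream with 51.3 and 81 CPM in WT and 99.1 and 86.6 CPM in KO (0.49 ± 0.32, adjusted p = 0.559), and *Pum2* one at -14133 bp with 101.9 and 79.7 CPM in WT and 43.6 and 71.8 CPM in KO (-0.66 ± 0.34, adjusted p = 0.46). In the first the KO pools lay above and in the second below. A *Zfp36* peak at -3778 bp, within the annotated gene *Gm44710*, had 113.5 and 130.4 CPM in WT against 164.6 and 168.9 CPM in KO, above without overlap (0.45 ± 0.23, adjusted p = 0.462).

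Because a promoter peak and the other peaks annotated to the same gene share their library, their ratio does not depend on scaling. It does depend on which peaks were called, and peaks of the KO list alone or the WT list alone were counted. Peaks outside the gene were counted too, such as those of *Zfp36l2* in *Thada* and *AC132455.2*. A share thus does not set a promoter against the body of its gene alone. What these choices add to the differences was not tested. At *Zfp36l2* the TSS peak held 27.1 and 32.3% of all Rpb2 reads annotated to the gene in WT and 15.9 and 20.5% in KO. At *Zc3h12a* the share was 50.6 and 42.4% against 30.3 and 39.7%, and at *Khsrp* 83.3 and 75% against 71.8 and 68.9%. *Zfp36* (64.1 and 68.9% against 63.7 and 63.3%) and *Zfp36l1* (61.7 and 62.6% against 60.8 and 55.4%) also had lower shares in both KO pools. *Pum2* (37.8 and 33.7% against 48.3 and 40.8%) and *Cnot1* (50 and 45.1% against 55.8 and 53.2%) had higher ones, and *Hnrnpd* overlapped (72.2 and 65.2% against 49.9 and 65.3%). Lower shares in both KO pools were thus seen at 5 of the 8 members with at least 2 peaks, beside 32.3% of 3800 genes. Higher shares in both KO pools were seen at 2 of the 8, beside 15.6% of the 3800 genes. *Khsrp* and *Cnot1* each have 2 peaks, both within 1000 bp of the TSS, so their shares set one promoter peak against another, and the lower share of the *Khsrp* peak at -829 bp is a higher share of its TSS peak. Among the 6 members with a peak further away, 4 had lower shares in both KO pools, beside 33.2% of 3188 such genes. The median difference was -6.42 percentage points over the 8 members, beside -2.82 over the 3800 genes. When peaks of both lists alone were counted, 3 of 5 members had lower KO shares (20.6% of 1251 genes), among them *Zfp36l2* with 56.1 and 61.8% against 42.6 and 55.2%. Higher KO shares were then at 1 of the 5 (18.9% of 1251 genes). The median difference was -4.61 percentage points over the 5 members, beside 0.157 over the 1251 genes.

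H3K27Ac formed broad domains over the start sites of the tristetraprolin and Regnase-1 genes. The peak over *Zfp36* was 16396 bp wide, rank 166 by width of 55862, and also covered *Plekhg2* and *Med29*. Those over *Zfp36l2* (11840 bp, rank 404), *Zfp36l1* (8182 bp, rank 983) and *Zc3h12a* (7393 bp, rank 1264) followed. The other 6 members had domains of 2356 to 4290 bp, wider than 82.7 to 93.4% of peaks. Per kb, the level was highest at *Zfp36* (35.2 CPM), then *Zfp36l2* (30), *Zfp36l1* (26.9), *Cnot1* (20.6), *Zc3h12a* (20.3), *Tia1* (19.3), *Hnrnpd* (14.1), *Elavl1* (13.7), *Pum2* (12.5) and *Khsrp* (8.99), and every neighbour in this order overlapped the next. *Cnot1*, lowest for Rpb2, stood above 6 of the other members for H3K27Ac.

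**Figure D3:**
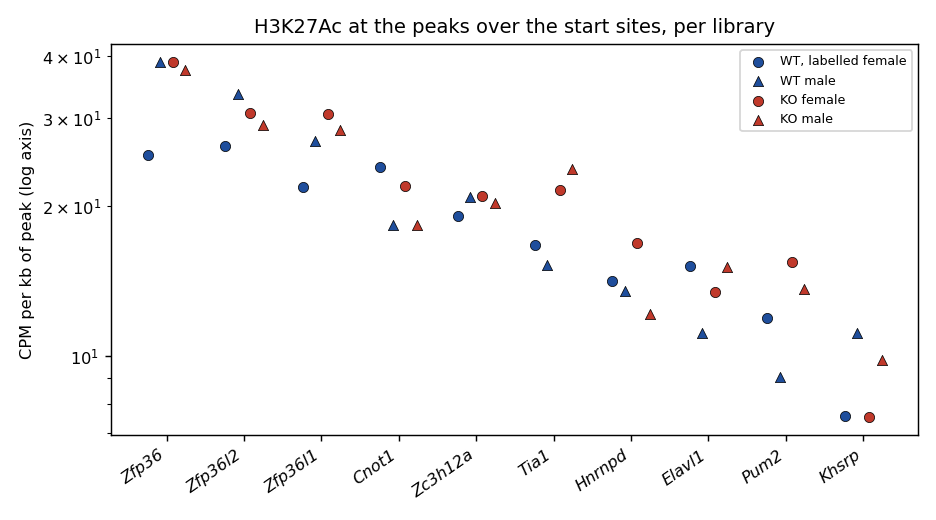
H3K27Ac level (CPM per kb of peak, log axis) at the peak over the start site of each of the 10 members, 1 point per library (blue WT, red KO, circles female, triangles male). At *Zfp36*, 3 libraries lie between 37.5 and 39 and the WT female library, which has 15.9% of its reads in peaks, at 25.4; only at *Tia1*, *Zfp36l1* and *Pum2* do both KO points lie above both WT points.

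For H3K27Ac the question was the same, whether acetylation at these genes differed between KO and WT microglia. None of the 59 peaks passed the adjusted threshold in the fit of 55798 peaks (0.0233% of all did), and 2 had an unadjusted p under 0.05 (4.95% of all), both with lower KO values. DESeq2, voom and the likelihood ratio test called none of the 59 either. KO pools lay above WT pools at 13 peaks (22%, beside 14.3% of all) and below at 8 (13.6%, beside 13% of all). Of the log2 fold changes, 30 were above 0 and 29 below, with a median of 0.03 beside -0.21 over all peaks. These medians depend on the list a peak came from, which these same libraries set. Peaks of the WT list alone were 22% of the 59 (33.2% of all), with medians of -5.96 and -6.78. For peaks of both lists the medians were 0.07 and 0.04, and for the KO list alone 0.25 and 0.515. The 13 peaks with KO above were 8 of both lists and 5 of the KO list. At the leading promoter peaks of 8 members the median was 0.19, beside 0.05 over 9520 genes.

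At the tristetraprolin domains, the WT libraries differed more from each other than the genotypes did. *Zfp36* had 415.9 and 637.6 CPM in WT against 639.1 and 615.2 CPM in KO (0.25 ± 0.37, adjusted p = 0.972). With the weakly enriched WT female library left out the value was -0.03, and with the WT male library left out it was 0.59. Each of these fits holds a single WT pool, and thus no spread between WT pools. *Zfp36l1* had 178.3 and 221.4 CPM in WT against 249.9 and 232.3 CPM in KO, with KO above (0.27 ± 0.32, adjusted p = 0.932). The value was 0.12 without the WT female library and 0.43 without the WT male library, again against a single WT pool. *Zfp36l2* had 312.8 and 398 CPM in WT and 364.7 and 345 CPM in KO (0.00 ± 0.34, adjusted p = 1), so the KO pools lay between the WT pools where Rpb2 at the TSS lay below.

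*Tia1* and *Pum2* had the largest values among the promoters. *Tia1* had 41.5 and 37.9 CPM in WT against 53.7 and 59.1 CPM in KO, above without overlap (0.51 ± 0.30, adjusted p = 0.811), and 0.57 without the WT female library (adjusted p = 0.251). *Pum2* had 32.8 and 24.9 CPM in WT against 42.4 and 37.5 CPM in KO, also above (0.48 ± 0.32, adjusted p = 0.811), and 0.67 without that library (adjusted p = 0.276). *Elavl1*, which shares this domain with *Ccl25*, had 36.5 and 26.7 CPM in WT and 32.2 and 36.1 CPM in KO (0.12 ± 0.32). *Hnrnpd* (0.07 ± 0.29), *Zc3h12a* (0.05 ± 0.30), *Cnot1* (-0.07 ± 0.30) and *Khsrp* (-0.11 ± 0.35) also overlapped between genotypes. Without the WT female library the values were 0.35 for *Elavl1*, 0.09 for *Hnrnpd*, -0.36 for *Khsrp* and 0.13 for *Cnot1*, where the sign turned.

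Both peaks with an unadjusted p under 0.05 lay far from the promoters and are annotated as intergenic. One, 72357 bp downstream of the *Hnrnpd* TSS and over the gene *Vamp9*, had 72 and 128 reads (WT) and 138 and 146 reads (KO), or 20.3 and 20.5 CPM against 10.5 and 11.7 CPM (-0.88 ± 0.43, adjusted p = 0.811). The Rpb2 peak inside it, from the KO list alone, went the other way by its values, with 10.1 and 14.5 CPM in WT and 16.7 and 24.2 CPM in KO (0.72 ± 0.65, adjusted p = 0.678). The other, at -126961 bp from *Zc3h12a*, had 53 reads in the weakly enriched WT female library and 0 in the remaining 3 (adjusted p = 0.563). A further 4 WT-list peaks, 3 of *Zc3h12a* and 1 of *Zfp36l2*, likewise had 13 to 26 reads in that library and at most 1 in the others, so these peaks rest on it alone.

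*Zfp36l2* had 26 H3K27Ac peaks, a number reached by 0.454% of 16945 genes. They lay between -125544 and 50623 bp from the TSS. The widest apart from the promoter domain were 9293 bp wide at 43938 bp downstream (123.5 and 138.4 CPM in WT, 158.4 and 146.2 CPM in KO, 0.22 ± 0.30) and 7054 and 6404 bp wide at -85202 and -103730 bp, in introns of *Thada*. The peak at -85202 bp had 147.8 and 204 CPM in WT against 165.5 and 158.8 CPM in KO (-0.12 ± 0.31), and that at -103730 bp had 57.9 and 131.4 CPM against 72.8 and 76.7 CPM (-0.35 ± 0.29, adjusted p = 0.835). At the last, the WT female library was the lowest and the WT male library the highest of the 4. Without the WT female library the difference was -0.82 with an adjusted p of 0.00124, a call that sets 2 KO pools against the WT male pool alone.

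**Figure D4:**
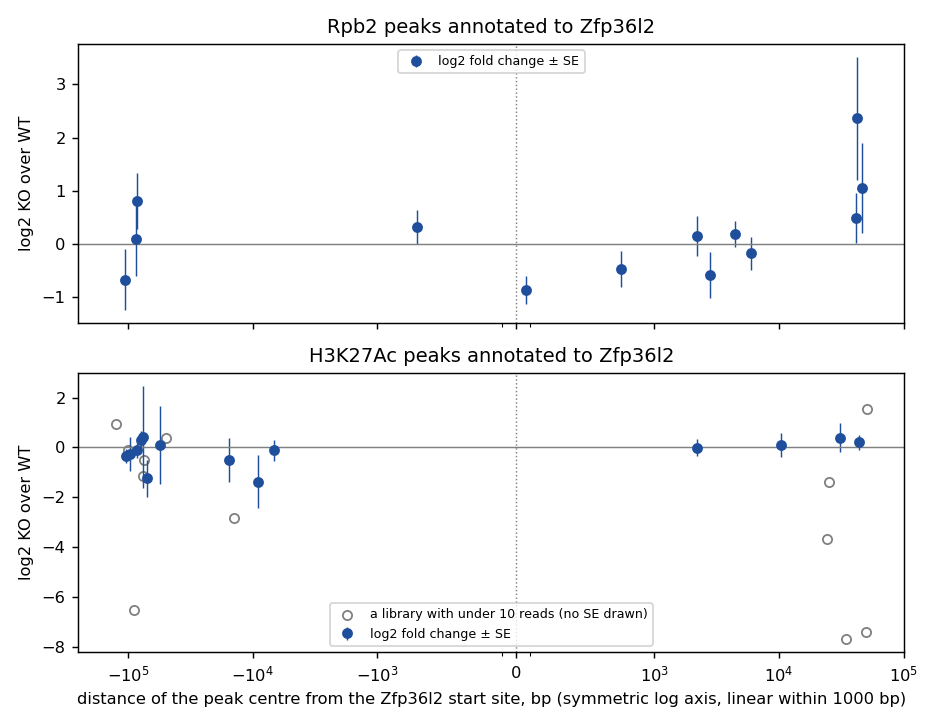
Log2 fold change, KO over WT, of the 13 Rpb2 peaks (top) and 26 H3K27Ac peaks (bottom) annotated to *Zfp36l2* against the distance of the peak centre from its TSS (symmetric log axis, negative upstream). Bars are SEs, and open circles are H3K27Ac peaks at which a library held under 10 reads; the Rpb2 peak at 75 bp lies at -0.86 and the H3K27Ac domain over the TSS at 0.00.

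Polymerase and acetylation lay together at the members. Of the 43 Rpb2 peaks, 39 (90.7%) overlapped an H3K27Ac peak by at least 1 bp, beside 76.6% of all Rpb2 peaks, and of the 29 with their centre over 1000 bp from a TSS 25 (86.2%) did, beside 63.4%.

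The other genes of mRNA decay were read from 7 lists with the same fits (81 genes with a leading promoter peak in each mark). No gene passed the adjusted threshold in either mark. In the CCR4-NOT list, which holds the deadenylase subunits and the adaptors that recruit them, 15 of 17 genes had a leading Rpb2 peak, with 1 unadjusted p under 0.05 in each direction and a median of -0.01. Its lowest p was that of *Tob1*, an adaptor of the complex, with 390.8 and 415.3 CPM in WT against 225 and 204.2 CPM in KO, below without overlap (-0.91 ± 0.22, adjusted p = 0.146). It passed the threshold with DESeq2 (adjusted p = 0.0315, or 0.0242 with its prior), voom (0.0464), edgeR's likelihood ratio test (0.034) and without the library labelled WT female (0.0394). In decapping and 5′-to-3′ decay, 8 of 10 genes had a median of 0.33, with *Ddx6*, an RNA helicase that promotes decapping, the lowest p (217.5 and 251.4 CPM in WT against 126.5 and 143.7 CPM in KO, -0.80 ± 0.28, adjusted p = 0.295). Neither the exosome list (11 of 15 genes, median 0.28) nor the other deadenylases (7 of 7, median 0.07) had an unadjusted p under 0.05, and their lowest were those of *Exosc9*, an exosome subunit (0.74 ± 0.48), and *Pan3*, of the PAN2-PAN3 deadenylase (-0.49 ± 0.31).

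*Auh*, an ARE-binding enoyl-CoA hydratase, stood furthest apart in the list of other mRNA stability proteins (18 of 24 genes, median 0.01, 3 with an unadjusted p under 0.05, all lower). Of the leading Rpb2 peaks of all 8350 genes, 348 were higher and 526 lower in KO at that p. *Auh* is 1 of the 3 and was entered because the study names it from these samples. The others, named after their values were seen, were *Hnrnpdl*, an hnRNP D relative (-0.76 ± 0.28, adjusted p = 0.323), and *Pcbp1*, a poly(C)-binding protein (-1.14 ± 0.54, adjusted p = 0.473). The TSS peak of *Auh* came from the WT list alone, and these same libraries set that list. It had 35 and 84 reads (WT) and 9 and 10 reads (KO), or 45.6 and 91.8 CPM against 2.97 and 7.12 CPM (-3.83 ± 0.73, adjusted p = 0.116). It passed the threshold with loess offsets (adjusted p = 0.0412), DESeq2 (0.00459), the likelihood ratio test (0.000487), the sex label as a replicate block (0.0104), and without the library labelled WT female (1.13e-05), the WT male library (0.0287) or the KO male library (0.00514). The list of upstream kinases, phosphatases and 14-3-3 proteins had 3 of 9 genes with an unadjusted p under 0.05, all lower, and a median of -0.03. *Map2k3*, a p38-activating kinase, had the lowest p of these (177.1 and 278.7 CPM in WT against 100.1 and 132.4 CPM in KO, -0.98 ± 0.31, adjusted p = 0.257, or 0.0208 without the library labelled WT female). The others, again named after their values were seen, were *Mapk14*, the kinase p38 alpha (-0.92 ± 0.30, adjusted p = 0.27), and *Ywhaz*, the 14-3-3 zeta protein (-0.74 ± 0.27, adjusted p = 0.328). ARE-containing targets had a median of -0.02 over 14 of 20 genes, and the lowest p was that of *Tnf*, a classical target of tristetraprolin. Rpb2 at its TSS was 174.5 and 173.8 CPM in WT against 382.9 and 309.5 CPM in KO, above without overlap (0.99 ± 0.24, adjusted p = 0.146), and it passed the threshold with DESeq2 and its prior (adjusted p = 0.0479), voom (0.0464), the likelihood ratio test (0.0283) and without the library labelled WT female (0.0487).

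For H3K27Ac, the medians of the lists ran from -0.15 for decapping (9 of 10 genes) to 0.38 for the ARE-containing targets (15 of 20 genes, 2 with an unadjusted p under 0.05, both higher). Of the leading H3K27Ac peaks of all 9520 genes, 212 were higher and 133 lower in KO at that p. The lowest p among the targets was that of *Fos*, an immediate-early gene, with 25.7 and 24.1 CPM in WT against 34.8 and 49.8 CPM in KO, above without overlap (0.76 ± 0.32, adjusted p = 0.811). In the other lists the lowest p values were those of *Ybx1*, an mRNA-binding protein (0.93 ± 0.34), *Paip1*, a partner of the poly(A)-binding protein (-1.01 ± 0.39), *Tnrc6c*, a GW182 protein (0.85 ± 0.42), *Patl1*, a decapping factor (0.56 ± 0.30), *Dusp1*, a p38 phosphatase (0.54 ± 0.29), and *Wdr61*, of the SKI complex (-0.57 ± 0.38). All had an adjusted p of 0.811, with KO pools above WT pools at *Ybx1*, *Patl1* and *Dusp1*, below them at *Paip1* and *Wdr61*, and overlapping at *Tnrc6c*. *Dusp1* is also in the list of targets.

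**Figure D5:**
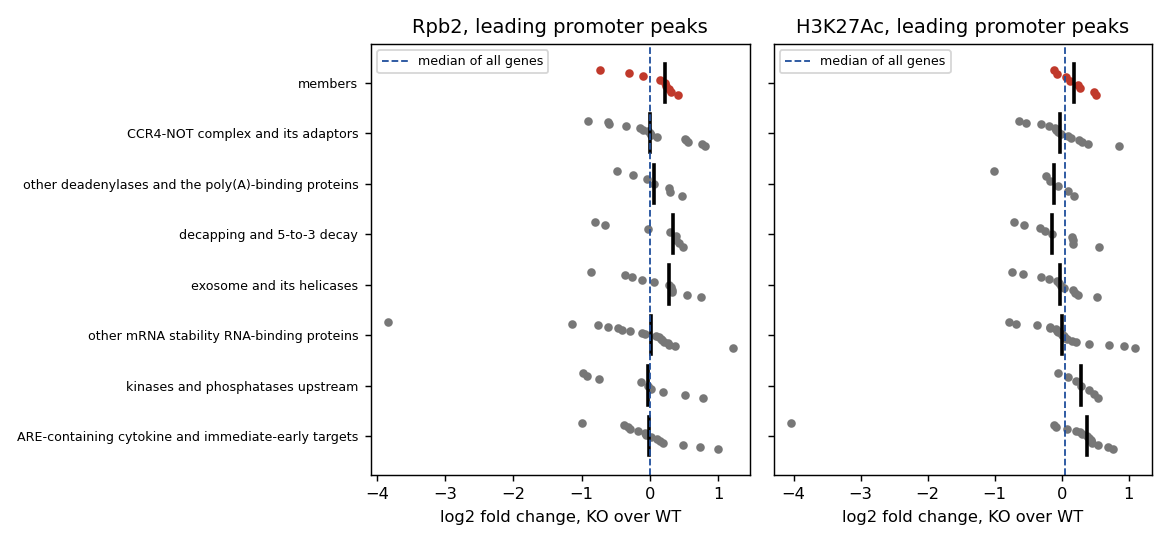
Log2 fold change, KO over WT, of the leading promoter peak of each gene (points) for the members and 7 lists of mRNA decay genes, with the list median (black bar) and the median of all genes (dashed line), for Rpb2 (left) and H3K27Ac (right). Members lie between -0.73 and 0.41 for Rpb2 and between -0.11 and 0.51 for H3K27Ac, and the point at -3.83 on the left is *Auh*.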

How the data were processed

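Single-end reads of 51 nt were aligned by the authors (Bowtie 2, mm10), who kept reads with a unique position, called peaks with HOMER and retained those that the irreproducible discovery rate passed between replicate pools. The merged peaks of each mark were deposited with raw counts of reads per peak and library, without normalization. Tool versions are not given in the sources used here. The tables' headers give 10395804 to 44332626 total reads per library. The 4 input samples of the 12 were not used here. The members and lists were chosen with earlier results of these data known. No peak lies past the end of its GRCm38 chromosome.

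Genotype was the only term of the model (n = 2 pools against 2), fitted to the counts by edgeR version 4.0.16 under R version 4.3.3, using glmQLFit, glmQLFTest, TMM factors and Benjamini-Hochberg adjustment over all peaks of a fit. Rpb2 peaks within 1000 bp of a TSS, all Rpb2 peaks and all H3K27Ac peaks were fitted separately. Peaks needed a mean of 4 reads in a genotype, which removed 64 H3K27Ac peaks. CPM are reads scaled to 1e+06 reads in the peaks of a fit after TMM, so CPM of the promoter fit and of the fit of all peaks are on different scales. The SE is the size of the log2 fold change divided by the square root of F. Ratios between single libraries, on the log2 scale, had 0.5 CPM added to each value. The code was tested on simulated data. The replicates are pools of mice, and p-values measure the spread between pools. With a pool left out, its genotype keeps a single pool, so SEs and p-values of such fits hold no spread within that genotype. The text names all members, *Cx3cr1*, *Auh*, the Y-linked genes as a group, and from each list the gene of lowest p in each mark, and 4 further list genes were named after their values were seen. Lists are described by counts and medians. Promoter shares and neighbours' peaks were chosen after seeing the data.

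Alternatives changed 1 choice at a time. They were scaling by total reads, loess offsets, DESeq2 (version 1.42.0, also with a prior on fold changes), the likelihood ratio test of edgeR, the absence of a filter, a minimum of 10 reads in all libraries, the sex label as a replicate block, other sets of peaks in the fit, and leaving out every pool once. Alternatives chosen after the data were seen were limma version 3.58.1 (voom with sample quality weights), the H3K27Ac peak that spans the TSS of *Zfp36l2* and *Zc3h12a*, and promoter shares over peaks of both lists, in genes with a peak over 1000 bp from a TSS, or without each pool. Overlaps of at least 1 bp between Rpb2 and H3K27Ac peaks were computed in R with GenomicRanges. Overlaps of peaks with annotated genes were computed with Python 3.11.15 and pandas 2.3.3. The number of per-sample columns left unused was 0.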

Additional observations from a re-analysis of the deposited data

Results flagged for a closer look

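At several start sites the pair of pools labelled female and the pair labelled male gave log2 ratios, KO to WT, of opposite sign. With 1 pool per genotype and sex this difference was not tested, and the Rpb2 library labelled WT female had 136 reads in peaks of Y-linked genes, where the KO female library had 0. For Rpb2 the signs were opposite at 5 of 9 members. The ratios labelled female and male were -0.082 and 0.577 at *Hnrnpd*, 0.777 and -0.058 at *Khsrp*, -0.367 and 0.193 at *Tia1*, -0.719 and 0.093 at *Zc3h12a*, and -0.108 and 0.439 at *Pum2*. For H3K27Ac they were opposite at 5 of 10 members, with 0.619 and -0.052 at *Zfp36*, 0.221 and -0.206 at *Zfp36l2*, -0.175 and 0.43 at *Elavl1*, 0.253 and -0.154 at *Hnrnpd*, and 0.13 and -0.034 at *Zc3h12a*. The WT female H3K27Ac library, which enters each ratio labelled female, had 15.9% of its reads in peaks.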

How the results depend on the processing

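Counts below are of peaks or genes past an adjusted p of 0.05. Among all promoter peaks, where the count was 0, it was 3 with loess offsets, 20 with DESeq2, 20 with its prior, 125 with the likelihood ratio test, 7 with at least 10 reads in every library, 24 with the sex label as a replicate block, 2 when all peaks entered the fit and 28 with voom, and 14 to 237 with a pool left out. Of the list genes, in the same order without the read minimum and the wider fit, these were 1, 2, 2, 3, 1 and 2 (0 to 5 with a pool left out), and of the member promoter peaks 0 to 1 with a pool left out. Over all Rpb2 peaks the count of 2 became 15 with loess offsets, 1022 with DESeq2, 1056 with its prior, 924 with the likelihood ratio test, 30 with the read minimum, 4 with the block, 94 with voom and 0 to 2210 with a pool left out. The member peaks among them were 1 with DESeq2, 1 with its prior, 1 with voom and 0 to 2 with a pool left out. For H3K27Ac the count of 13 became 0 by total reads, 240 with DESeq2, 1 with the read minimum, 0 with promoter peaks alone, 0 with peaks of both lists alone, 7 with voom, and 2 to 8157 with a pool left out, of which 0 to 5 were member peaks and 0 to 10 list genes. The counts of 2210 and 8157 came without the library labelled WT female and without the WT male library.

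Female minus male differences, by label, did not go together in WT and KO: they correlated at 0.002, -0.007 and 0.001 across the peaks of the 3 fits. The Rpb2 library labelled WT female held reads at Y-linked genes, so the Rpb2 values cannot show whether sex pairs those pools. The replicate block called no member peak, and of the list genes called *Auh*. Total reads in place of TMM moved the median of all peaks from 0.02 to 0.218, from 0.041 to 0.37 and from -0.208 to 0.529 on the log2 scale. Members' medians moved with it from 0.097 to 0.42 (all Rpb2 peaks) and from 0.186 to 0.834 (H3K27Ac, 0.016 with loess offsets), and with a pool left out they ranged from 0.089 to 0.195 (promoter peaks), -0.059 to 0.08 and 0.122 to 0.288. By total reads the sign turned at *Tia1* for Rpb2 (0.118) and at *Khsrp* (0.44) and *Cnot1* (0.74) for H3K27Ac, and with loess offsets at *Hnrnpd* for H3K27Ac (-0.085). The cause was not tested. With a pool left out it turned for Rpb2 at *Hnrnpd* (-0.078 to 0.587), *Khsrp* (-0.002 to 0.73), *Tia1* (-0.263 to 0.089) and *Pum2* (-0.075 to 0.406), and for H3K27Ac at *Zfp36* (-0.031 to 0.592), *Elavl1* (-0.093 to 0.35), *Hnrnpd* (-0.188 to 0.293), *Khsrp* (-0.363 to 0.196) and *Cnot1* (-0.255 to 0.127). Lower promoter shares were at 3 of 5 members with peaks of both lists alone, at 4 of the 6 with a peak further from a TSS, and at 5 to 6 members with a pool left out. With 2 pools per genotype, differences within these SEs are undetectable, and some well beyond their SE also missed the threshold. The *Zfp36l2* TSS peak, at -0.73 ± 0.25, had an adjusted p of 0.29 in the quasi-likelihood test of promoter peaks.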

Other observations

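Besides the peak shared with *Ccl25*, 4 peaks lay on or close to a member but were annotated to a neighbour. An Rpb2 peak 3390 bp past the *Zfp36* TSS, beyond the end of the gene and annotated to *Plekhg2*, had 111 and 181 reads (WT, female and male) and 336 and 235 reads (KO), with a log2 change of -0.44 ± 0.31 (adjusted p = 0.597), beside 0.10 at the *Zfp36* TSS in the same fit of all peaks. A peak from the KO list at the far end of *Elavl1*, 37033 bp past its TSS and annotated to *Timm44*, had 0 and 10 WT reads against 47 and 41 KO reads (1.83 ± 1.17, adjusted p = 0.549). One past the end of *Pum2*, also from the KO list, at 79380 bp and annotated to *Sdc1*, held 4 and 11 against 79 and 24 reads (1.18 ± 0.90, adjusted p = 0.62). An H3K27Ac peak within *Cnot1*, from the KO list of that mark and annotated to *4930513N10Rik*, held 0 and 18 against 10 and 46 reads. The KO lists were set by these same libraries. These peaks were looked for after the members' values had been seen.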
